A study of Mus musculus with 36 samples.

Results

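This is the interaction of fasting with loss of Vps15 in mouse liver: for every gene, the log2 change on fasting in knockout liver minus the log2 change on fasting in wild-type liver, over 12 libraries in 4 groups of 3. The whole series holds 36 samples. Of 23875 features with enough counts to test, 2873 had an interaction past an adjusted p of 0.05 (12%), 1512 of them higher in the knockout response (6.33%) and 1361 lower (5.70%). Those genes were sorted by the ratio of the knockout to the wild-type fasting change. A wild-type response was called blunted when the knockout kept 0.25 or more of it in the same direction, abolished when the ratio lay between -0.25 and 0.25, and reversed at -0.25 or below. Genes with no called response in wild type and a called response in the knockout were called knockout-only. The remainder, with a called interaction but no called response in either genotype, are termed difference only.

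All livers came from male mice, 4 weeks old. Wild-type mice (labelled WT) and mice labelled Ttr CRE+, Vps15f/f were either fed ad libitum or fasted for 24 h. All were killed at zeitgeber hour 14, early in the dark phase. The Ttr (transthyretin) promoter that drives Cre is active in hepatocytes, and the f/f mark denotes a Vps15 allele flanked by loxP sites on both chromosomes. The labels do not give the Cre and flox status of the wild-type mice beyond WT. They name the cell type as hepatocyte, but the protocol describes frozen, powdered whole liver, so every resident cell type is in each library. In such bulk samples fewer cells of a type and less RNA per cell cannot be told apart. Nothing in the labels ties the 3 libraries of a group to cages or litters; each is taken as a separate mouse, and the p-values measure the spread between these samples. Polyadenylated RNA was sequenced and read pairs were counted per gene. Libraries are called a, b and c within a group, letters that carry no order or pairing.

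Vps15, encoded by Pik3r4, is the regulatory subunit of class 3 phosphoinositide 3-kinase. With the catalytic subunit Vps34 it makes phosphatidylinositol 3-phosphate on endosomes and autophagosomes, and so serves endosomal sorting and autophagy. In the fasted liver, falling insulin and rising glucagon, glucocorticoids and free fatty acids switch transcription from storage to supply. Nuclear receptors such as PPARalpha raise fatty acid oxidation and ketogenesis, CREB and forkhead factors raise gluconeogenic and amino acid genes, and the SREBP factors that drive fatty acid and cholesterol synthesis are turned down. The series title places class 3 kinase activity in the nucleus and ties it to chromatin changes on fasting; the interaction asks which fasting responses of the transcriptome differ when Vps15 is deleted.

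Promoter sequences of some genes that the results turn on are printed with the regulatory elements they hold. The RefSeq promoter table (GRCm38.p6, 32851 promoters of 27025 genes, each 250 bases before to 50 after a start) was searched on either strand for 12 motifs; matches to different motifs may overlap. The first set is shown because it holds the element that stood furthest from its background, the interferon-stimulated response element core, written here as GAAA, any 2 bases, GAAA. It lay in 13 of 19 promoters (68.4%) of the interferon-stimulated genes with a called interaction, of which 17 of 21 matched the table, against 3.44% of all promoters and 3.25% of promoters of tested genes. Genes of this kind are known for the element: it also lay in 9 of 23 promoters (39.1%) of the tested list members without a called interaction. The 150 bases before the start are printed 5′ to 3′ on the gene's strand, with the element in capitals.
Bst2 (chr8:71537473-71537622, minus strand): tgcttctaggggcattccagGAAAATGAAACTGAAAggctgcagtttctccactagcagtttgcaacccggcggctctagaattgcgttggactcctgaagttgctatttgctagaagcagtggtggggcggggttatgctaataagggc
Oas3 (chr5:120777660-120777809, minus strand): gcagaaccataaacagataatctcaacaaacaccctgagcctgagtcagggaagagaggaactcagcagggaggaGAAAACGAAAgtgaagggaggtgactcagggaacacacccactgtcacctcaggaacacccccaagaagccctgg
Oas1a (chr5:120907526-120907675, minus strand): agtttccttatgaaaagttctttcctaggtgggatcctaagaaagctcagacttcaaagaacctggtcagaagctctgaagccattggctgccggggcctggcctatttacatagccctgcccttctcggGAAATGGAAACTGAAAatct

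The second set comes from cholesterol synthesis (Dhcr7 was chosen after its values were seen) and is shown for its CCAAT boxes (the letters CCAAT, bound by NF-Y, or ATTGG on the opposite strand). A box lay in 9 of 11 promoters (81.8%) of the 9 matched cholesterol genes of 15 with a called interaction, against 37.4% of all promoters, and in 6 of 8 (75%) for the tested members without a called interaction. The letters are common, so most promoters with a box belong to no such group. Boxes are in capitals.
Mvd (chr8:122443423-122443572, minus strand): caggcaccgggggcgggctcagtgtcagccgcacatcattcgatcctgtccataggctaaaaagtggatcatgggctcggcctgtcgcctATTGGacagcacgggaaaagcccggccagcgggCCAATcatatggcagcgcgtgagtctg
Nsdhl (chrX:72918371-72918520, plus strand): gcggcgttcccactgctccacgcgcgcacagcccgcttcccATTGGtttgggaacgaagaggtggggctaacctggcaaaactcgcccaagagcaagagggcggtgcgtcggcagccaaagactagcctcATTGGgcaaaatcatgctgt
Dhcr7 (chr7:143830064-143830213, plus strand): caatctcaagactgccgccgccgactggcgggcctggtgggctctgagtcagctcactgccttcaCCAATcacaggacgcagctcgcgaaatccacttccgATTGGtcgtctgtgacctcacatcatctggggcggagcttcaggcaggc

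The third set shows elements tied to fasting itself. A palindromic cAMP response element (TGACGTCA) lay in 3.58% of 810 promoters of genes whose rise in wild type was blunted, abolished or reversed, against 1.79% of all promoters and 2.83% of promoters of tested genes. The forkhead box (TGTTTAC) lay in 5.31% of them, against 3.65% and 2.82%. Other elements were near the share of tested genes. A direct repeat of nuclear receptor half-sites (searched by name) lay in 0.247%, against 0.274% of promoters of tested genes. The glucocorticoid response element (searched by name) lay in 0.37%, against 0.37%, and the C/EBP site (TTGCNNAA, N any base) in 9.88%, against 9.05%. No cAMP response element, forkhead box or direct repeat matched in the 26 promoters of the called fatty acid oxidation genes. This says only that those letters are not in this window. Ldha, lactate dehydrogenase A, is shown for its cAMP response element and Lpin2, a phosphatidate phosphatase, for a forkhead box at its internal start, the third of 3 in the table.
Ldha (chr7:46845654-46845803, plus strand): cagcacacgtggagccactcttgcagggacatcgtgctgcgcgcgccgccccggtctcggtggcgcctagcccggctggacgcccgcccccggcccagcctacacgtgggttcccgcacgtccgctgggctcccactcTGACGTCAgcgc
Lpin2 (chr17:71204504-71204653, plus strand): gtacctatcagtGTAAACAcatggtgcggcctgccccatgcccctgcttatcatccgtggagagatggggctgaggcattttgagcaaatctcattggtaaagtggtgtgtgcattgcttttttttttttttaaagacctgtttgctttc

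Total counts ran from 9110836 to 12870944 per library, and levels are given as CPM, counts relative to the library size after scaling by TMM factors, which ran from 0.801 to 1.22 and were lowest in fasted wild type. Pik3r4 (ENSMUSG00000032571, chromosome 9, 105642978 to 105687657, plus strand, mm10) did not fall: it stood at 23.1, 17.6 and 22.9 CPM in fed wild type, 21.0, 24.7 and 21.2 in fasted wild type, 24.6, 22.2 and 25.3 in fed knockout and 21.1, 24.0 and 18.2 in fasted knockout. A transcript that lacks the deleted exons is still counted, so these values do not check the labels. The first principal component (63.7% of variance) separated the genotypes and the second (15.1%) fed from fasted wild type. On that second component fasted knockout library b, at 7.57, lay nearer the fed knockout libraries than its partners, at 23.6 and 23.9. Without it, 1330 features rather than 362 changed on fasting in the knockout; knockout counts of gene lists below are from all 12 libraries, with the count without library b where it differs by more than 1.5 times. Knockout and wild type differed at 46.2% of features in the fed state and at 56.1% in the fasted state, so an interaction here sits on large differences between the genotypes at rest. Summed over 21 hepatocyte markers, none of them at 0 in any group, the level was 51565 to 58957 CPM in fed wild type, 62697 to 66976 in fasted wild type, 24818 to 28019 in fed knockout and 24819 to 28083 in fasted knockout.

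Of the 2560 wild-type fasting responses that differed in the knockout, 1565 were abolished at a ratio bound of 0.25. At a bound of 0.1 the count was 695, with 729 blunted and 1136 reversed, so the size of each class follows the bound. Fasting changed 6282 features in wild type (26.3%), 2981 upward (12.5%) and 3301 downward (13.8%). In the knockout it changed 362 (1.52%; 1330 without fasted knockout library b), 199 upward (0.834%) and 163 downward (0.683%). The interaction was called for 1205 of the wild-type rises (40.4%) and 1355 of the falls (41.0%). Over all 2981 wild-type rises the median ratio of knockout to wild-type change was 0.1, and over all 3301 falls 0.171. Wild-type contrast and interaction share the wild-type libraries, and knockout contrast and interaction share the knockout libraries, so the overlap between these counts is no separate evidence.

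Of the 2873 called features, 250 were blunted (87 rises and 163 falls), 1565 abolished (693 and 872), 745 reversed (425 and 320), 79 knockout-only (45 and 34) and 234 difference only; none was enhanced. Median changes in wild type and knockout were 1.35 and 0.44 on the log2 scale for blunted rises and -1.55 and -0.50 for blunted falls. For abolished rises they were 1.06 and 0.00, and for abolished falls -1.47 and -0.05. For reversed rises they were 0.74 and -0.38, and for reversed falls -0.72 and 0.36. The 95% interval of the knockout change held 0 in 1470 of the 1565 abolished features and in 387 of the 745 reversed ones, so that "reversed" names a ratio and only 37 features changed in both genotypes in opposite directions. Wild-type fed and fasted libraries did not overlap at 2541 of the 2560 blunted, abolished or reversed features (41.8% of all tested features), and knockout libraries at 677 (22% of all). The wild-type count follows largely from the sorting rule, which required a called wild-type change in these same libraries. It is no separate evidence for the classes.

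**Figure D1:**
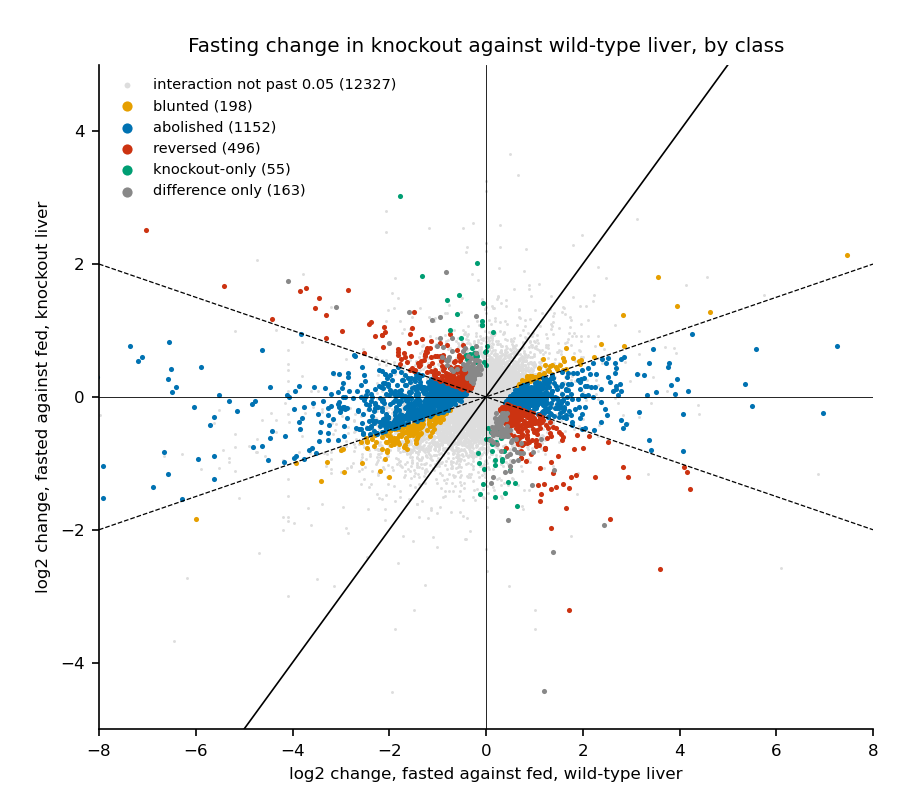
Log2 fasting change in knockout liver (y axis) against wild-type liver (x axis) for 14391 features with a symbol, coloured by class; 21 lie beyond the axes. The solid line marks equal change, the dashed lines ratios of 0.25 and -0.25, so the 1152 abolished features with a symbol lie between the dashed lines and the 496 reversed ones beyond them on the other side of 0.

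The split between higher and lower interactions depends on scaling: with library sizes alone 3258 features were called, 68.9% of them higher, against 52.6% with TMM, and the median interaction over all features moved from 0.01 to 0.15. Without a filter on low counts the share was 66.3%. Just inside the threshold lay Tgfa, a growth factor (interaction -0.57, adjusted p = 0.0498), and Slfn1 (2.07, adjusted p = 0.0498), and just outside it Irgm2 (0.88, adjusted p = 0.0501) and Btg1 (-0.64, adjusted p = 0.0501). Adjusted p-values here and below are from edgeR's quasi-likelihood test with Benjamini-Hochberg adjustment over all tested features, and ± or SE values refer to 3 libraries per group.

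Part of the list of fasting regulators and secreted factors had a lower interaction, while most members had no called interaction. Of 34 tested members of this list, 13 had a lower and 1 a higher interaction, against 5.70% and 6.33% of all features. In wild type 18 rose, against 12.5% of all features. In the knockout 2 rose, against 0.834%, and 1 fell (4 without fasted knockout library b). Without fasted wild-type library b or c 8 were lower. Lpin2, the phosphatidate phosphatase named above (chromosome 17, 71182560 to 71249817), had the smallest adjusted p of the list. It stood at 97.0, 88.9 and 96.7 CPM in fed wild type, 548, 653 and 536 in fasted wild type, 262, 261 and 268 in fed knockout and 274, 249 and 314 in fasted knockout. Fed knockout thus lay above fed wild type and below fasted wild type, and fed and fasted knockout overlapped. Lpin2 rose by 2.62 in wild type (SE 0.12), its knockout change was 0.08 (95% interval -0.16 to 0.33) and the interaction was -2.54 (SE 0.17, adjusted p = 1.36e-07). Its paralog Lpin1, also a coactivator of PPARalpha, stood at 299 ± 48.8, 850 ± 20.7, 205 ± 55.6 and 167 ± 10.3 CPM in the same group order (mean ± SD, n = 3), with an interaction of -1.80 (SE 0.23).

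Ppargc1a, the coactivator PGC-1alpha that links fasting signals to gluconeogenesis and mitochondria, went from 5.82, 8.83 and 7.84 CPM in fed to 50.6, 30.2 and 26.3 in fasted wild type, against 15.6, 11.8 and 16.1 in fed and 5.16, 8.99 and 4.56 in fasted knockout. Neither pair of groups overlapped, and they moved in opposite directions. The wild-type rise was 2.25 (SE 0.29), the knockout change -1.21 (SE 0.29, adjusted p = 0.055) and the interaction -3.46 (SE 0.41, adjusted p = 0.000166). Klf11, a Kruppel-like factor, rose from 6.25 ± 2.04 to 36.2 ± 0.856 CPM in wild type (mean ± SD, n = 3) and stood at 21.0 ± 1.42 and 25.8 ± 4.15 in the knockout. Angptl4, a secreted inhibitor of lipoprotein lipase, stood at 65.4, 89.8 and 52.4 CPM in fed and 476, 518 and 444 in fasted wild type, and at 78.7, 85.4 and 108 in fed and 125, 120 and 158 in fasted knockout. Both pairs were apart, with an interaction of -2.22 (SE 0.25, adjusted p = 4.52e-05). Gdf15, a stress hormone of the same list and its only member with a higher interaction, fell in wild type from 147, 69.9 and 102 to 8.76, 11.5 and 15.5 CPM and stood at 70.2 to 74.5 in fed and 85.9 to 101 in fasted knockout (interaction 3.52, SE 0.34).

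Several textbook fasting genes did not pass the interaction test. Fgf21, the hepatic fasting hormone, stood at 1.66, 5.56 and 8.55 CPM in fed and 60.1, 52.7 and 50.7 in fasted wild type, and at 11.7, 16 and 30.7 in fed and 39.1, 20.6 and 45.5 in fasted knockout. Wild-type libraries were apart and knockout libraries overlapped; the interaction was -2.52 (95% interval -4.20 to -0.85, adjusted p = 0.0599) and passed in 4 of 7 other fits and without fed wild-type library c. Ppara, the nuclear receptor itself, had an interaction of -0.59 (-1.10 to -0.07, adjusted p = 0.135, and 0.02445 without fasted knockout library c), and Igfbp1, a binding protein induced when insulin falls, -3.26 (-5.88 to -0.65, adjusted p = 0.11). Igfbp1 passed with DESeq2, limma-voom or edgeR without robust moderation, and without fed wild-type library b. It spread widely: 6.44, 85.1 and 14.2 CPM in fed and 447, 451 and 706 in fasted wild type, against 550, 372 and 870 in fed and 1096, 674 and 1071 in fasted knockout. Creb3l3, a membrane-bound transcription factor of the fasting liver that was named after its values were seen, rose in both genotypes, by 1.24 (SE 0.14) and 0.75 (SE 0.14), with an interaction of -0.49 (adjusted p = 0.111, and 0.02719 without fed knockout library a).

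Pdk4, the kinase that shuts pyruvate dehydrogenase in fasting, was blunted on the log scale. It stood at 6.75, 5.34 and 3.77 CPM in fed wild type, 43.2, 68.0 and 76.0 in fasted wild type, 29.7, 41.0 and 71.1 in fed knockout and 168, 161 and 167 in fasted knockout. Fed knockout overlapped fasted wild type, and fasted knockout lay above every other library. The change was 3.56 (SE 0.37) in wild type and 1.81 (SE 0.31, adjusted p = 0.026) in the knockout, and the interaction -1.75 (SE 0.47, adjusted p = 0.0378). With 1 library left out its adjusted p ran from 0.00889 to 0.0937, passing the threshold in some of the fits only. On the CPM scale the sign was the opposite, as for 39 blunted, 28 abolished and 2 knockout-only features; 2804 of the 2873 called features kept their sign on that scale.

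**Figure D2:**
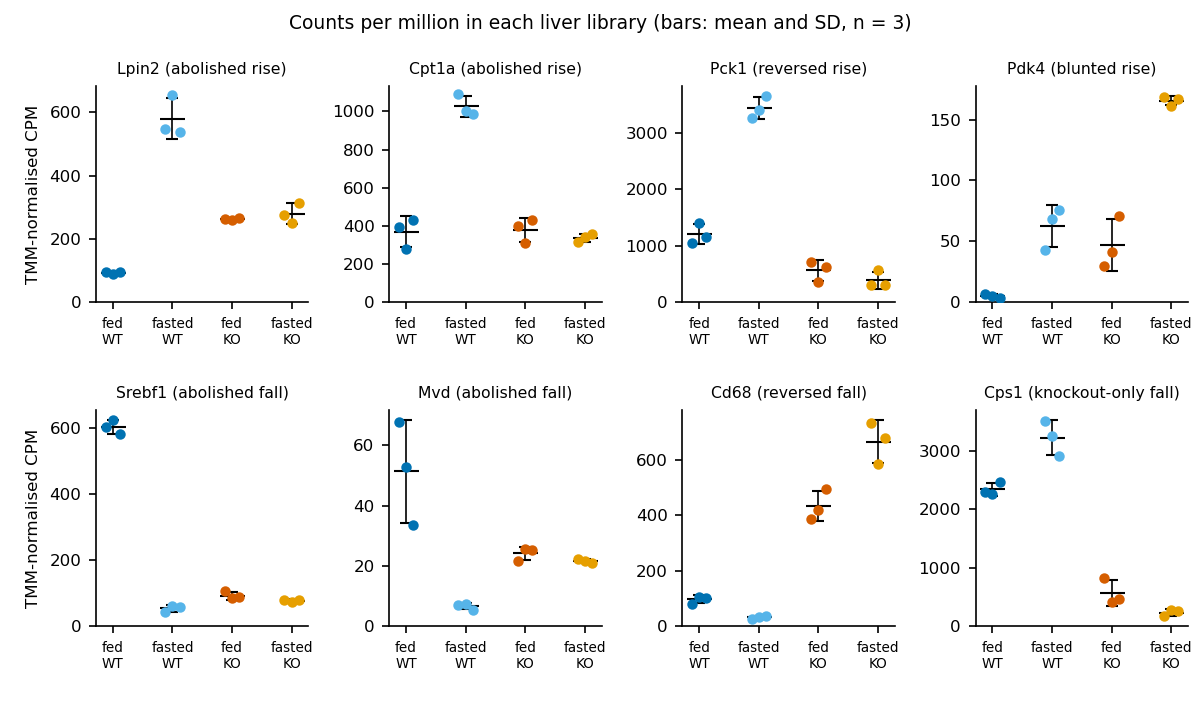
TMM-scaled CPM (y axes, linear from 0) in each of the 12 liver libraries for 8 genes, 1 panel each; points are libraries, horizontal bars the mean and whiskers the SD of 3. The abolished and reversed rises (Lpin2, Cpt1a, Pck1) are high only in fasted wild type, while Srebf1 is high only in fed wild type, Cd68 in both knockout groups and Cps1 in both wild-type groups.

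Fatty acid oxidation and ketogenesis genes rose on fasting in wild type, with few rises called in the knockout. Of 51 members, all tested, 43 rose in wild type and 2 in the knockout (1 without fasted knockout library b). Over all features rises were called at 12.5% in wild type and 0.834% in the knockout. A lower interaction was called at 33 members and a higher one at none, against 5.70% of all features lower. The median interaction was -0.84 against 0.01 over all features. With library sizes alone 30 members were lower and 2 higher, and without the count filter 31 and 3. Cpt1a (chromosome 19, 3322334 to 3385733), the carnitine palmitoyltransferase that admits fatty acids to mitochondria, stood at 396, 278 and 433 CPM in fed wild type, 1091, 1005 and 987 in fasted wild type, 401, 309 and 430 in fed knockout and 315, 344 and 356 in fasted knockout. The fed groups overlapped, as did both knockout groups, and fasted wild type stood apart. It rose by 1.48 in wild type (SE 0.16), with a knockout change of -0.17 (95% interval -0.49 to 0.15) and an interaction of -1.64 (SE 0.22, adjusted p = 0.000133).

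Slc22a5, the carnitine importer, rose from 21.7 ± 5.41 to 91.8 ± 11.8 CPM in wild type (mean ± SD, n = 3) and stood at 24.1 ± 3.17 and 27.0 ± 4.61 in the knockout (interaction -1.92, SE 0.24, adjusted p = 0.0001). Crat, carnitine acetyltransferase, and Hadhb, the thiolase subunit of the mitochondrial trifunctional protein, followed with interactions of -1.54 (SE 0.21) and -1.09 (SE 0.17). Acaa1b, a peroxisomal thiolase named after its values were seen, kept its response: it rose by 1.35 (SE 0.18) in wild type and 1.03 (SE 0.18) in the knockout, from a lower level, with an interaction of -0.32 (95% interval -0.87 to 0.22). Cyp4a14, a fatty acid omega-hydroxylase, rose in wild type from 194, 213 and 212 to 5176, 5123 and 4989 CPM and stood at 99.7, 24.9 and 133 in fed and 120, 360 and 146 in fasted knockout; its interaction of -3.34 (SE 0.84, adjusted p = 0.0358) passed in some fits only, with adjusted p from 0.00355 to 0.0834 when 1 library was left out. Cyp4a genes have near-identical copies, so their counts are uncertain.

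Lipid droplet genes split. Of 18, 6 had a lower and 3 a higher interaction, against 5.70% and 6.33% of all features. In wild type 8 rose and in the knockout 5, against 12.5% and 0.834% of all features. Cidec, a droplet-fusion protein, stood at 4.78, 3.05 and 4.38 CPM in fed wild type, 110, 70.1 and 54.6 in fasted wild type, 122, 112 and 130 in fed knockout and 241, 222 and 238 in fasted knockout. All 4 groups were apart, with fed knockout already above fasted wild type. Cidec rose by 4.26 (SE 0.24) in wild type and by 0.95 (SE 0.19, adjusted p = 0.029) in the knockout. The interaction was -3.31 (SE 0.31), from a fed level that was 4.89 higher on the log2 scale. On the CPM scale its sign was the opposite: means went from 4.07 to 78.2 in wild type and from 121 to 234 in the knockout. Plin2, the main droplet coat protein, rose by 1.65 (SE 0.14) from 241 ± 7.9 CPM in fed wild type and by 0.74 (SE 0.13) from 753 ± 134 CPM in fed knockout (mean ± SD, n = 3). Its fasted means were 758 CPM in wild type and 1259 in the knockout, so the rises were of similar size on the CPM scale. Pnpla2, the triglyceride lipase ATGL, was blunted (interaction -1.22, SE 0.21), and Plin5, a coat protein of oxidative tissues, abolished (-1.06, SE 0.18). Hilpda, an inhibitor of that lipase named after its values were seen, rose in both genotypes, by 1.63 (SE 0.27) and 1.25 (SE 0.19). Fabp4, a fatty acid-binding protein of adipocytes and macrophages also named after its values were seen, was knockout-only and rose there, from 27.2, 25.1 and 31.1 to 56.2, 45.3 and 75.9 CPM, with wild-type libraries between 7.29 and 10.7.

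Of 24 gluconeogenic genes 12 rose in wild type and 1 in the knockout, against 12.5% and 0.834% of all features. Of the 24, 9 had a lower and none a higher interaction, against 5.70% of all features lower. None fell in the knockout with all libraries and 7 fell without fasted knockout library b. Pck1, the cytosolic phosphoenolpyruvate carboxykinase, stood at 1055, 1400 and 1157 CPM in fed and 3268, 3409 and 3654 in fasted wild type, and at 711, 364 and 623 in fed and 302, 571 and 300 in fasted knockout. Wild-type groups were apart and knockout groups overlapped below them. The wild-type rise was 1.52 (SE 0.28), the knockout change -0.53 (95% interval -1.14 to 0.07) and the interaction -2.05 (SE 0.39, adjusted p = 0.00594). Pcx, pyruvate carboxylase, and Got1, aspartate aminotransferase, had interactions of -1.22 (SE 0.17) and -3.03 (SE 0.42). Got1 stood at 191, 199 and 254 CPM in fed and 971, 697 and 657 in fasted wild type, against 469, 214 and 289 and then 119, 193 and 118 in the knockout. Ldha, whose promoter is printed above, rose from 551 ± 24.1 to 1016 ± 61.3 CPM in wild type and stood at 446 ± 99.5 and 417 ± 13.7 in the knockout (mean ± SD, n = 3; interaction -0.98, SE 0.19). G6pc, glucose-6-phosphatase, missed the threshold (interaction -3.34, 95% interval -5.84 to -0.85, adjusted p = 0.0883): its knockout libraries ran from 12.9 to 94.9 CPM in the fed and 8.29 to 37.9 in the fasted state. It passed with DESeq2, limma-voom or edgeR without robust moderation, and without library b of either knockout group.

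Amino acid catabolism genes with a called interaction were mostly reversed or difference only. Of 43 members of the amino acid and urea cycle list, 19 had a lower and none a higher interaction, against 5.70% of all features lower. Of these 19, 8 were reversed, 2 abolished, 3 knockout-only and 6 difference only. In wild type 11 rose and 2 fell, against 12.5% and 13.8% of all features. In the knockout 1 rose and 5 fell, against 0.834% and 0.683%. Without fasted knockout library b 19 fell, in a fit where 1330 rather than 362 features changed in the knockout. Tat, tyrosine aminotransferase and a classic target of glucocorticoids, stood at 1993, 2509 and 1885 CPM in fed wild type, 3295, 3617 and 3659 in fasted wild type, 890, 489 and 752 in fed knockout and 344, 488 and 383 in fasted knockout. Wild-type groups were apart; in the knockout the highest fasted library lay just below the lowest fed one, 488 against 489. Tat rose by 0.73 (SE 0.19) in wild type, fell by 0.81 in the knockout (SE 0.19, adjusted p = 0.0457) and had an interaction of -1.54 (SE 0.27, adjusted p = 0.00149). Slc7a2, the cationic amino acid transporter of the list, rose from 161 ± 27.8 to 662 ± 51.4 CPM in wild type and stood at 313 ± 71.7 and 225 ± 39.8 in the knockout (mean ± SD, n = 3; interaction -2.51, SE 0.24). Hykk, hydroxylysine kinase, had an interaction of -2.44 (SE 0.24) and Bckdha, a subunit of the branched-chain keto acid dehydrogenase, of -1.01 (SE 0.20). Arg1, the arginase that closes the urea cycle, and Gldc, the glycine decarboxylase and no member of the list, both named after their values were seen, had interactions of -1.31 (SE 0.25) and -1.65 (SE 0.22). The count of 19 was 10 without fasted wild-type library a, 11 without fed wild type a and 12 without fasted wild type b or fasted knockout c.

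Cps1, carbamoyl phosphate synthetase and the entry enzyme of the urea cycle (chromosome 1, 67123026 to 67231259), was knockout-only. It stood at 2303, 2264 and 2469 CPM in fed wild type, 3513, 3252 and 2914 in fasted wild type, 832, 417 and 466 in fed knockout and 169, 284 and 255 in fasted knockout. Both pairs of groups were apart, in opposite directions. The wild-type change of 0.46 (SE 0.23, adjusted p = 0.17) did not pass, while the knockout fell by 1.28 (SE 0.24, adjusted p = 0.025); the interaction was -1.74 (SE 0.33, adjusted p = 0.00462). The fed knockout was already 2.04 lower than fed wild type on the log2 scale, and the summed hepatocyte markers, which did not move between fed and fasted knockout beyond their spread, were lower in both knockout groups; their part in the result was not tested.

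Lipogenesis and glycolysis genes went in both directions. Of 36, 15 fell and 6 rose in wild type, against 13.8% and 12.5% of all features, the share of rises near that background. In the knockout 3 fell, against 0.683%. A higher interaction was called at 13 and a lower one at 5, against 6.33% and 5.70% of all features. Srebf1, the transcription factor that drives fatty acid synthesis under insulin (chromosome 11, 60199089 to 60222581), stood at 602, 622 and 580 CPM in fed wild type, 43.4, 61.1 and 57.7 in fasted wild type, 107, 84.3 and 88.0 in fed knockout and 80.7, 72.5 and 79.7 in fasted knockout. Fed wild type stood apart from all other libraries. The wild-type fall was -3.47 (SE 0.14), the knockout change -0.26 (95% interval -0.53 to 0.01) and the interaction 3.21 (SE 0.19, adjusted p = 3.31e-08). Fasn, fatty acid synthase, fell from 1374 ± 273 to 285 ± 45.9 CPM in wild type and stood at 323 ± 29.1 and 252 ± 37.8 in the knockout (mean ± SD, n = 3; interaction 1.91, SE 0.23). Thrsp, a lipogenic protein induced by thyroid hormone, stood at 1115, 878 and 979 CPM in fed and 119 to 122 in fasted wild type, but at 7.17 to 14.3 in every knockout library (interaction 2.89, SE 0.29). Pgd and G6pdx of the pentose phosphate pathway fell in wild type, by -0.97 (SE 0.11) and -1.28 (SE 0.17), while both knockout groups lay above fed wild type, at 284 to 386 CPM for Pgd against 61.8 to 68.2.

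Cholesterol synthesis genes fell on fasting in wild type. No fall was called in the knockout, where 0.683% of all features had one. Of 24 members 22 fell in wild type, against 13.8% of all features, and none in the knockout (1 without fasted knockout library b). A higher interaction was called at 15 and a lower one at none (17 higher with library sizes alone), against 6.33% of all features higher. In 11 of these 15 genes the genotypes differed in the fasted state only. Mvd, mevalonate diphosphate decarboxylase, stood at 67.7, 52.8 and 33.6 CPM in fed and 6.96, 7.52 and 5.50 in fasted wild type, and at 21.6, 25.7 and 25.3 in fed and 22.5, 21.8 and 21.0 in fasted knockout. Fasted wild type lay below all other libraries. The interaction was 2.79 (SE 0.29, adjusted p = 2.23e-05). Sqle, squalene epoxidase, and Nsdhl, a sterol dehydrogenase, had interactions of 2.10 (SE 0.29) and 1.87 (SE 0.32).

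Chaperones of the endoplasmic reticulum fell on fasting in wild type, with no fall called in the knockout. Of 24 members of the unfolded protein response list 20 fell in wild type and none in the knockout, against 13.8% and 0.683% of all features. Interactions were higher at 13 and lower at none (17 higher with library sizes alone), against 6.33% of all features higher. Hspa5, the chaperone BiP, stood at 984, 1087 and 772 CPM in fed and 394, 393 and 497 in fasted wild type, and at 230, 280 and 231 in fed and 219, 245 and 289 in fasted knockout. Knockout groups overlapped below fasted wild type. The interaction was 1.17 (SE 0.21, adjusted p = 0.00153). Sdf2l1, Manf and Hyou1, secretory-pathway proteins of the same response, had interactions of 1.80 (SE 0.31), 1.41 (SE 0.24) and 1.19 (SE 0.22), each with fed knockout more than 2 log2 units below fed wild type (-2.44, -2.22 and -2.33). Of 39 genes tied to ATF4, the factor of amino acid stress, 11 had a higher and 4 a lower interaction (7 higher with limma-voom, 2 lower without fasted wild-type library a). In the knockout 1 rose, and 12 rose without fasted knockout library b. Aldh18a1, an enzyme of proline synthesis on that list, fell in wild type from 4.02 ± 0.452 to 0.912 ± 0.218 CPM and stood at 17.5 ± 2.53 and 13.4 ± 1.25 in the knockout (mean ± SD, n = 3). Atf4 itself had an interaction of 0.67 (95% interval 0.20 to 1.14, adjusted p = 0.059), which passed with DESeq2, with library sizes alone, without the count filter and without fasted knockout library b.

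**Figure D3:**
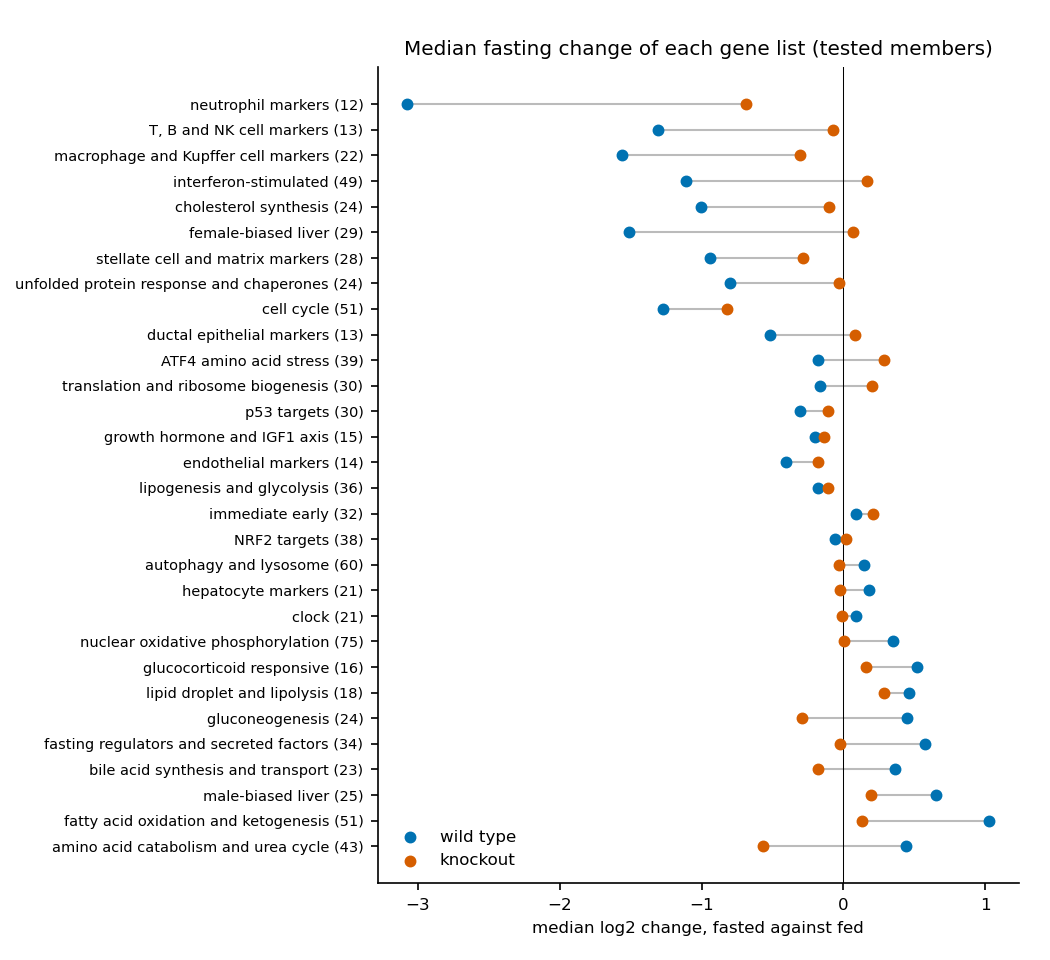
Median log2 fasting change (x axis) of the tested members of each of 30 gene lists, in wild-type (blue) and knockout (orange) liver; the number tested is in brackets. Knockout medians lie nearer 0 than wild-type ones in most lists, and the median of amino acid catabolism lies at 0.44 in wild type and -0.57 in knockout.

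Interferon-stimulated genes fell on fasting in wild type, with few or no falls called in the knockout. Of 49 members 34 fell in wild type and none in the knockout (2 without fasted knockout library b), against 13.8% and 0.683% of all features. A higher interaction was called at 21 and a lower one at none, against 6.33% of all features higher. That count was 27 with library sizes alone, 37 without the count filter, 34 with DESeq2, and ran from 13 without fasted wild-type library b to 37 without fed knockout b. Irf7, the factor that amplifies interferon output, stood at 166, 152 and 150 CPM in fed wild type, 67.9, 62.4 and 85.0 in fasted wild type, 357, 517 and 456 in fed knockout and 495, 569 and 468 in fasted knockout. The knockout groups overlapped, above all wild-type libraries. The wild-type change was -1.12 (SE 0.15), the knockout change 0.20 (95% interval -0.10 to 0.50) and the interaction 1.33 (SE 0.20, adjusted p = 0.000448). Bst2, the antiviral tether tetherin whose promoter is printed above, went from 125, 126 and 107 to 49.1, 53 and 58.4 CPM in wild type, with 162 to 233 in fed and 179 to 208 in fasted knockout (interaction 1.12, SE 0.19). Oasl1, an oligoadenylate synthetase-like protein, and Rtp4 had interactions of 2.19 (SE 0.34) and 1.86 (SE 0.23). Oas3 and Oas1a, oligoadenylate synthetases named after their values were seen and with close paralogs whose reads may be split, had interactions of 2.44 (SE 0.45) and 1.85 (SE 0.38). Many of these genes are also expressed by macrophages and other immune cells, whose summed markers fell with them in wild type, as given next; their part in the result was not tested.

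Macrophage markers fell on fasting in wild type and mostly had no called change in the knockout. Of 22, 21 fell in wild type, while 1 rose and 2 fell in the knockout (7 fell without fasted knockout library b). Falls were called at 13.8% of all features in wild type and 0.683% in the knockout. Of the 22 markers 19 had a higher and none a lower interaction (16 to 19 with 1 library left out), against 6.33% of all features higher. Their summed level was 2092 to 2660 CPM in fed and 693 to 958 in fasted wild type, and 4259 to 4991 in fed and 3742 to 4259 in fasted knockout, and none was at 0. Cd68, the lysosomal glycoprotein of macrophages (chromosome 11, 69664213 to 69666153), stood at 82.4, 107 and 104 CPM in fed wild type, 27.3, 35.2 and 37.1 in fasted wild type, 388, 420 and 495 in fed knockout and 735, 584 and 680 in fasted knockout. Neither pair of groups overlapped and they moved in opposite directions. The change was -1.56 (SE 0.15) in wild type and 0.62 (SE 0.14, adjusted p = 0.0396) in the knockout; the interaction was 2.18 (SE 0.21, adjusted p = 9.41e-06). Most other markers did not rise in the knockout. C1qa, a complement subunit of Kupffer cells, stood at 209, 284 and 235 CPM in fed and 83.4, 102 and 102 in fasted wild type, with 310 to 335 and 275 to 312 in the knockout (interaction 1.17, SE 0.18). Lyz2, the myeloid lysozyme, had an interaction of 1.4 (SE 0.21) and Mpeg1, the macrophage perforin, of 1.23 (SE 0.17).

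Other non-hepatocyte lists followed to differing degrees. Beside each of them, 6.33% of all features had a higher and 5.70% a lower interaction, and 0.683% fell in the knockout. Neutrophil markers summed to 23.4 to 42.8 CPM in fed and 5.39 to 6.87 in fasted wild type, and to 58.4 to 74.4 and 33.7 to 58.4 in the knockout, with 4 of 12 higher interactions (2 to 4 with 1 library left out); no fall was called in the knockout, and 5 without fasted knockout library b. T, B and NK cell markers summed to 132 to 174 and 30.2 to 52.1 CPM in wild type and 76.4 to 149 and 69.8 to 166 in the knockout, with 3 of 13 higher. Endothelial markers summed to 1017 to 1231 and 824 to 970 CPM in wild type and 1104 to 1261 and 1072 to 1194 in the knockout, with 2 of 14 higher (1 to 3). Of 28 stellate and matrix genes 18 fell in wild type and none in the knockout (1 without fasted knockout library b), against 13.8% and 0.683% of all features. A higher interaction was called at 14 of the 28, against 6.33% of all features. Their summed level was 3321 to 4016 CPM in fed and 2691 to 3122 in fasted wild type. In the knockout it was 2744 to 3727 in the fed and 2608 to 2718 in the fasted state. Summed levels thus were lower after fasting without overlap in both genotypes. Col1a1, a chain of type I collagen, stood at 45.2, 52.0 and 45.4 CPM in fed and 6.06, 5.64 and 7.70 in fasted wild type, and at 143, 127 and 215 in fed and 156, 123 and 111 in fasted knockout (interaction 2.57, SE 0.28, adjusted p = 3.95e-05). Col3a1 was blunted (1.90, SE 0.26). Ductal markers had 2 of 13 higher. They summed to 129 to 172 and 105 to 118 CPM in wild type and 218 to 287 and 260 to 360 in the knockout. Krt19, a cholangiocyte keratin, had an interaction of 2.51 (SE 0.47). Hepatocyte markers had 2 lower and 1 higher of 21 (0 or 1 higher with 1 library left out). Over all features the shares were 5.70% lower and 6.33% higher, so the higher count was near its background. In wild type, then, summed hepatocyte markers were higher after fasting, without overlap of libraries. Summed markers of macrophages, neutrophils, lymphocytes, endothelium, stellate cells with matrix, and ducts were lower, also without overlap. The part of these sums in the called interactions was not tested.

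Of 51 cell cycle genes 23 fell in wild type and 5 in the knockout, against 13.8% and 0.683% of all features. A higher interaction was called at 7 of the 51 (4 with limma-voom, 12 without the count filter), against 6.33% of all features. Over all wild-type falls 41.0% had a called interaction. Ccnd1, cyclin D1, stood at 111, 231 and 110 CPM in fed and 12.9, 15.2 and 15.8 in fasted wild type, but at 130 to 131 in fed and 107 to 151 in fasted knockout (interaction 3.30, SE 0.37, adjusted p = 0.000239). E2f2, a cell cycle transcription factor, and Mcm6, a helicase subunit, had interactions of 3.84 (SE 0.51) and 1.67 (SE 0.32). Of 30 ribosome biogenesis genes 4 were higher and none lower, among them Nop56, a box C/D nucleolar protein (0.89, SE 0.23). Of 30 p53 targets 4 were higher and 3 lower, and of 32 immediate early genes 4 and 3. Beside these lists and that of ribosome biogenesis, 6.33% of all features were higher and 5.70% lower. With 1 library left out the higher counts ran from 2 to 5 for ribosome biogenesis (9 with library sizes alone), 2 to 5 for p53 targets (8 with library sizes alone) and 3 to 7 for immediate early genes (11 without the count filter), and the lower count of p53 targets reached 6 without fed wild-type library b.

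Autophagy and lysosome genes, the pathway closest to the kinase itself, rose on fasting at 20 of 60 members in wild type. In the knockout none rose (3 without fasted knockout library b). Over all features rises were called at 12.5% in wild type and 0.834% in the knockout. Of the 60, 11 had a lower and 4 a higher interaction (2 higher without fed wild-type library b or c), against 5.70% and 6.33% of all features. Map1lc3b, the autophagosome protein LC3B, stood at 131, 108 and 139 CPM in fed and 284, 266 and 266 in fasted wild type, and at 175, 174 and 188 in fed and 172, 163 and 181 in fasted knockout. Fasted wild type stood above all other libraries. The interaction was -1.17 (SE 0.16, adjusted p = 0.000139). Sqstm1, the autophagy receptor p62, stood at 295, 250 and 295 CPM in fed and 609, 640 and 578 in fasted wild type, with 789, 870 and 752 in fed and 962, 960 and 1114 in fasted knockout. All 4 groups were apart, the knockout highest. The wild-type rise was 1.12 (SE 0.12), the knockout change 0.33 (SE 0.11, adjusted p = 0.13) and the interaction -0.79 (SE 0.16, adjusted p = 0.00394). Calcoco1 and Optn, further autophagy receptors, had interactions of -1.50 (SE 0.25) and -0.87 (SE 0.17). Of 75 nuclear oxidative phosphorylation genes 41 rose in wild type and none in the knockout, against 12.5% and 0.834% of all features. Lower interactions numbered 7 of 75 against 5.70% of all features, a share near that background. The count was 0 without fasted wild-type library a, 13 without fasted knockout b and 19 with Ensembl genes alone. Cox7a2, a cytochrome oxidase subunit, was lower by -0.72 (SE 0.18, adjusted p = 0.0148; 0.0613 without fasted wild-type library a).

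Among remaining lists, bile acid genes had 9 lower and no higher interactions of 23, including the canalicular transporters Abcb4, a phospholipid floppase (-0.98, SE 0.16), and Abcc2, a conjugate exporter (-0.91, SE 0.16), and the sterol exporter subunits Abcg5 (-1.15, SE 0.22) and Abcg8 (-1.76, SE 0.25). Over all features 5.70% had a lower and 6.33% a higher interaction, the background for every list in this paragraph. Glucocorticoid-responsive genes had 3 lower and 2 higher of 16 (7 lower without fed wild-type library b). NRF2 targets had 5 higher and 4 lower of 38 and clock genes 3 higher and 4 lower of 21. Growth hormone and IGF1 axis genes had 2 higher and 1 lower of 15, the lower share near that background. With 1 library left out, NRF2 counts ran from 5 to 9 higher (9 without fed knockout library b), clock counts from 1 to 6 lower (1 without fasted wild type b) and growth hormone axis counts from 0 to 1 lower. Female-biased liver genes had 9 higher and 1 lower of 29 (14 higher with DESeq2). Cyp2b9, a female-biased cytochrome P450, stood at 197, 430 and 514 CPM in fed and 2.32, 1.5 and 8.94 in fasted wild type, with 14.3 to 15.4 in fed and 12.1 to 34.0 in fasted knockout (interaction 6.93, SE 0.94, adjusted p = 0.00231). Cyp2c40 and Cyp2c69, of a family with near-identical copies, had interactions of 6.34 (SE 0.73) and 7.37 (SE 0.83). Male-biased genes had 2 lower and none higher of 25, a share near the 5.70% of all features lower, with 9 lower without fed wild-type library a and 0 without fasted wild type a or c or fed knockout a. Of these Cyp4a12b, which has a near-identical copy, stood at 10.6, 0.218 and 0.814 CPM in fed and 170, 203 and 193 in fasted wild type, and at 2.08 to 5.31 in all knockout libraries (interaction -4.87, SE 1.18, adjusted p = 0.0319). With 1 library left out its adjusted p was below 0.05 without fed wild-type library a or b and 0.0515 to 0.0899 without any other.

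Where the levels part differed between rises and falls. Of the 1205 blunted, abolished or reversed rises, fed knockout already stood above fed wild type at 352, below it at 353 and did not differ past 0.05 at 500. Fasted knockout fell short of fasted wild type at 977, went beyond it at 58 and did not differ at 170. Of the 1355 such falls, fed knockout already stood below fed wild type at 421, as for Srebf1, above it at 548, as for Cd68, and did not differ at 386. Fasted knockout stayed above fasted wild type at 1031. Erbb3, a growth factor receptor of hepatocytes and among the strongest abolished rises, showed the raised fed level: 45.1, 35.9 and 49.3 CPM in fed and 192, 173 and 170 in fasted wild type, against 73.2, 65.6 and 73.4 and then 63.8, 59.9 and 67.2 in the knockout. Paxx, a DNA repair factor among the strongest abolished falls, showed the lowered one: 74.9, 87.2 and 107 CPM in fed and 9.02 to 11.1 in fasted wild type, with 8 to 10.1 in every knockout library (interaction 3.24, SE 0.22, adjusted p = 1.6e-07). Tmem200b and Inf2 of the same class had interactions of 3.71 (SE 0.27) and 2.40 (SE 0.18). Pik3r1, the regulatory subunit of the class 1 kinase that carries the insulin signal, fell from 139, 177 and 189 to 34.3, 44.7 and 40.0 CPM in wild type, with 60.1 to 72.2 in fed and 71.9 to 82.9 in fasted knockout (interaction 2.30, SE 0.19, adjusted p = 1.58e-06).

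**Figure D4:**
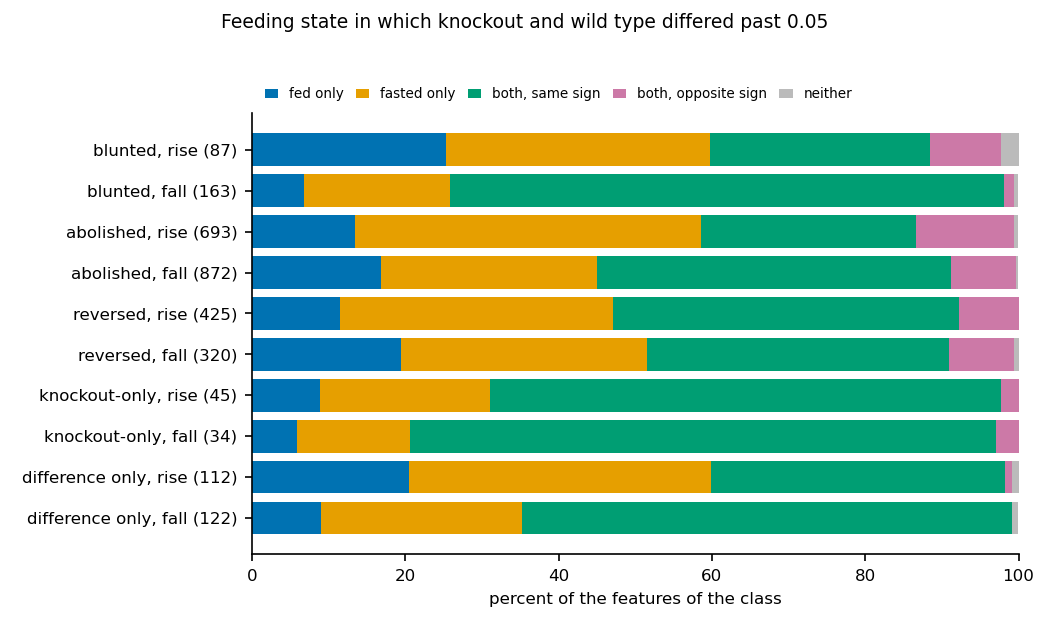
Share of each class (x axis, percent of its features; number in brackets) in which knockout and wild type differed past 0.05 in the fed state only, the fasted state only, both with the same sign, both with opposite sign, or neither. The most frequent position was the fasted state only among abolished rises (313 of 693) and both states with the same sign among abolished falls (402 of 872), reversed rises (192 of 425) and reversed falls (126 of 320).

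The strictly reversed class, called in both genotypes in opposite directions, held 37 features, 30 of them with a symbol: 21 rose and 16 fell in wild type. Besides Cd68, Tat and Gldc it held Zhx3, a zinc finger and homeobox repressor, at 56, 57.5 and 67.7 CPM in fed and 106, 125 and 96.5 in fasted wild type against 48.5, 40.2 and 40.1 in fed and 26.3, 28.4 and 29.5 in fasted knockout. Groups of both genotypes were apart (interaction -1.46, SE 0.18, adjusted p = 6.16e-05). Slpi, a secreted protease inhibitor, fell in wild type from 4.78, 5.89 and 5.19 to 1.42, 2.00 and 1.51 CPM and rose in the knockout from 73.2, 101 and 118 to 144, 140 and 156 (interaction 2.27, SE 0.28). Pea15a, an adaptor of ERK signalling, fell by -1.05 (SE 0.15) and rose by 0.61 (SE 0.14). Klf15, a glucocorticoid-induced regulator of amino acid genes named after its values were seen, rose by 0.73 (SE 0.18) in wild type and fell by 0.83 in the knockout (SE 0.19). The size of this class rests on single libraries: 0 features without fasted knockout library a or c, 174 without b, 5 without fed knockout a or c, 69 without fed knockout b, and 18 to 24 without fasted wild type b or c or fed wild type c.

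The 79 knockout-only features were 45 rises and 34 falls with a median knockout change of 0.76 and -0.96. Genotypes differed in both feeding states with the same sign at 56 of them. Arhgap27, a GTPase-activating protein, stood at 8.41, 9.27 and 8.55 CPM in fed and 7.47, 5.64 and 6.74 in fasted wild type, and rose from 38.6, 36.5 and 38.2 to 60.2, 50.6 and 57.4 in the knockout (change 0.57, SE 0.11, adjusted p = 0.024; interaction 0.97, SE 0.19). Ccn1, a matricellular protein, rose in the knockout by 0.63 (SE 0.13), and Rab31, an endosomal Rab GTPase, by 1.01 (SE 0.23). Rbm47, an RNA-binding protein, fell in the knockout from 68.4, 59.9 and 58.4 to 41.2, 44.5 and 40.6 CPM, with 75.0 to 93.5 in fed and 89.4 to 108 in fasted wild type (interaction -0.80, SE 0.16). Hist1h1c, a linker histone with close paralogs, and Abcc6, a hepatic transporter, fell in the knockout by 1.10 (SE 0.20) and 0.56 (SE 0.13). This class too rests on single libraries: 287 features without fasted knockout library b, 4 without a, 2 without c, 13 without fed knockout a or c, and 52 and 50 without fasted wild type b and c.

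**Figure D5:**
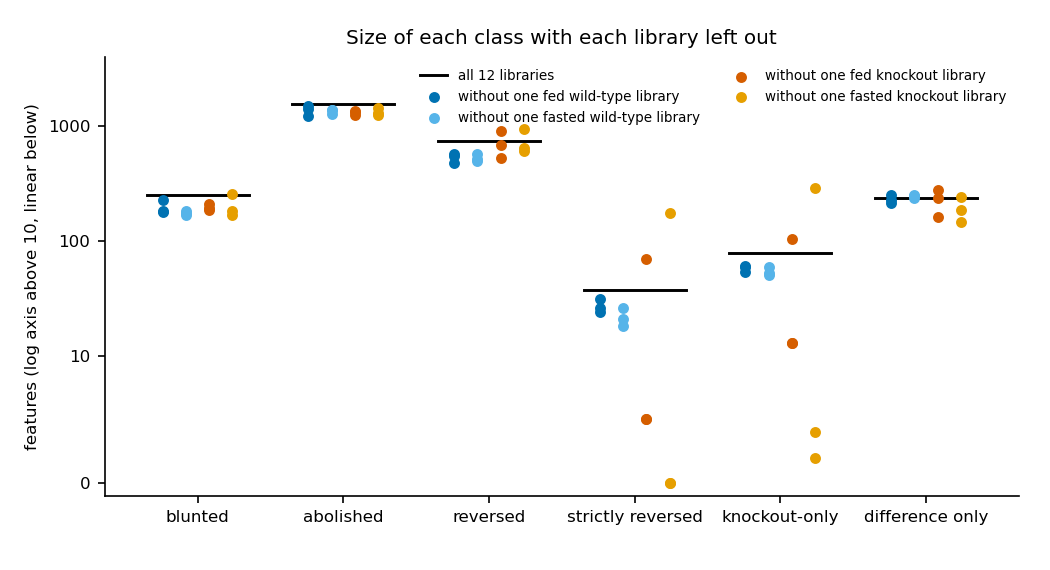
Number of features in each class (y axis, logarithmic above 10 and linear below) with all 12 libraries (black bars) and with each library left out (points, coloured by the group of the library). Blunted counts run from 167 to 255 and abolished counts from 1215 to 1487, whereas strictly reversed and knockout-only counts run from 0 to 174 and from 2 to 287.

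Few fasting responses were called in both genotypes. Of the 2981 wild-type rises 74 also rose past 0.05 in the knockout, 16 of them with a called interaction, and of the 3301 falls 75 also fell, 17 with a called interaction. Knockout calls with no wild-type call numbered 109 rises and 67 falls; 45 of these rises and 34 of these falls had a called interaction. Among the shared responses, Abca1, the cholesterol exporter named after its values were seen, stood at 199, 196 and 206 CPM in fed and 100, 117 and 118 in fasted wild type, and at 178, 153 and 157 in fed and 91.4, 98.8 and 86.9 in fasted knockout. Fed and fasted groups were apart in both genotypes. Abca1 fell by -0.84 (SE 0.11) and -0.81 (SE 0.11), and its interaction of 0.03 had a 95% interval of -0.29 to 0.34. Outside the shared responses, Nr1d1, the clock repressor REV-ERBalpha, had an interaction of -0.25 (-1.91 to 1.42). Mat2a, methionine adenosyltransferase and also not a shared response, had one of -0.44 (-0.83 to -0.06, adjusted p = 0.132, and 0.04998 without fasted wild-type library c). The intervals of Nr1d1 and Mat2a allow differences of either small or, for Nr1d1, large size. The count of knockout responses, 362, was 1330 without fasted knockout library b, 7 without a or c, and 57 and 45 without fed knockout a and c, so that the number of shared and of knockout-only responses follows which libraries enter; the interaction count was 2982 without library b.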

How the data were processed

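Gene counts of 12 liver libraries, 3 in each of 4 groups, were deposited as raw counts per feature, per the labels; strand and overlap settings are not given in the sources used here. HISAT2, Subread, DESeq2, edgeR and mm10 appear in the submitters' processing notes without a role. Of 136300 features (48526 Ensembl, 87774 NONCODE), 23875 passed edgeR's filterByExpr. Counts were fitted with edgeR 4.0.16 (quasi-likelihood, robust moderation, TMM factors, 1 mean per group over 12 libraries) in R 4.3.3. Contrasts were fasting in each genotype, their difference, and genotype in each feeding state, with Benjamini-Hochberg adjustment at 0.05. Classes used a ratio bound of 0.25. Without a stated strand setting, overlapping features cannot be told apart. Totals ran from 9110836 to 12870944. Replicate libraries differed beyond sampling noise.

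Named genes were a fixed set of 21, the 4 smallest interaction p-values of each class and direction at 5 CPM or more, and up to 4 members of each list described; others are marked, and some genes under the rule are not reported here. The members and lists were chosen with earlier results of these data known. Column names carry group suffixes but numbers that run across groups, so libraries were not paired. Alternatives were RLE factors, library sizes alone, no count filter, Ensembl genes only, DESeq2 1.42.0, limma-voom 3.58.1, a minimum-fold test (glmTreat), other class bounds and thresholds, and each library left out. The code was tested on simulated data. There edgeR recovered 33 of 100 interactions of log2 size 1 and 80 of 100 of log2 size 2, with 7 false calls. A missing call is therefore no evidence of an equal response.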

Additional observations from a re-analysis of the deposited data

Results flagged for a closer look

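The fasting change went in opposite directions in the 2 genotypes, past an adjusted p of 0.05 in each and in the interaction term that tests the difference itself, at 37 features, 21 rising and 16 falling in wild type. Cd68 (interaction 2.18), Slpi (2.27) and Pea15a (1.66) fell in wild type and rose in the knockout. Tat (-1.54), Zhx3 (-1.46), Gldc (-1.65) and Klf15 (-1.56) did the opposite. The number depends on single libraries, as given with the class in the report.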

How the results depend on the processing

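The interaction count was 2871 with RLE factors, 3258 with library sizes alone, 3741 without a count filter (2481 higher), 2479 with Ensembl genes only, 3155 with DESeq2 and 2540 with limma-voom. DESeq2 shared 2778 calls with edgeR. With 1 library left out it ran from 2144 to 2982 (higher 1085 to 1484, lower 1008 to 1498). Requiring a minimum fold (glmTreat) left 279 (154 higher, 125 lower). Library sizes alone gave 1 enhanced feature. Without a count filter there were 299 knockout-only and 200 strictly reversed features and 1456 responses to fasting in knockout liver; DESeq2 gave 176, 99 and 909, and Ensembl genes only 563 knockout responses. A ratio bound of 0.1 gave 729 blunted, 695 abolished and 1136 reversed, and one of 0.5 gave 3 blunted and 338 reversed. A fasting threshold of 0.01 gave 393 reversed, 2 knockout-only, 712 difference only and 0 strictly reversed, and one of 0.1 gave 137 knockout-only, 62 difference only and 133 strictly reversed. With 1 library left out, counts ran from 2 to 287 knockout-only, 0 to 174 strictly reversed, 7 to 1330 knockout responses, 0 to 5 enhanced, 145 to 279 difference only, 477 to 943 reversed, 1215 to 1487 abolished, 167 to 255 blunted and 4681 to 6464 wild-type responses. The causes were not tested. Among 174 named genes, 3141 of 3306 values under the alternatives kept their direction and side of the threshold, 115 fell below it, 45 rose past it and 5 changed sign: the Abca1 interaction (0.03) ran from -0.0239 without fasted knockout library b to 0.0989 with 1 library left out, with -0.0151 without fasted wild type a and -0.0161 without fed knockout b, and the Nr1d1 interaction (-0.25) from -0.5491 to 0.2034, with 0.0520 without fasted wild type b and 0.2034 without fed wild type b. The fit without robust moderation (2879 calls) was chosen after seeing the data. No paired analysis was possible because the columns carry no replicate numbers. At these depths, features with few counts were left untested.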
